A study of Mus musculus with 8 samples.

Results

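The regions described here carried the histone mark H3K27ac in every library of the study, as 1 unbroken peak in each, at the start or end of a protein-coding gene. Peaks of the 4 deposited lists that overlapped by at least 1 base were merged into 72585 regions. A region was kept where it held exactly 1 peak of each list and where its midpoint lay within 2 kb of the first or last base of a protein-coding gene on mm10. This gave 5960 regions, 8.21% of all merged regions and 30.6% of the 19493 regions with a peak in all 4 lists. Presence of a peak and the number of peaks chose the regions and are no result. The widths entered the rule through the overlap and through the midpoint, so a width change is read beside the same change over all 19493 regions.

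The cells were muscle stem cells from skeletal muscle of C57BL/6 mice. ASC, activated satellite cells, came from muscle 2.5 days after injury with BaCl2, a salt that destroys myofibres. FISC, freshly isolated satellite cells, came from muscle that had received no treatment. Each condition had 2 H3K27ac libraries with a peak list, and the 4 input libraries entered no comparison. The labels give neither the age of the mice nor whether replicates were separate animals, so a p-value speaks only of the spread among these libraries, and that spread may be technical.

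Satellite cells lie quiescent beneath the basal lamina of the myofibre and enter the cell cycle after injury to supply new myonuclei. H3K27ac is deposited by the acetyltransferases p300 and CBP at active promoters and enhancers, and at a promoter it flanks the stretch left free of nucleosomes where transcription begins. Promoters rich in CpG dinucleotides serve most housekeeping genes and often carry GC boxes, which bind Sp1. Promoters of genes expressed late in the cell cycle often combine CCAAT boxes, bound by NF-Y, with a CHR element, bound by the DREAM and MuvB complexes.

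The sequences upstream of 8 starts are shown because they cover the 3 width patterns met below. Each line holds the 250 bases before the listed transcript start on the gene's own strand, from RefSeq on GRCm38.p6, the assembly of mm10. Capitals mark CCAAT, the GC box GGGCGG, the CHR TTTGAA and the E2F letters TTCCCGC, on either strand. The 8 genes were chosen after their widths were seen, among those whose listed transcript start is also the outermost base of the gene. Regions that widened lay at the starts of Fbxo5, Mcm3, Plk1, Cxcl10 and Taf4, regions that narrowed at those of Prr5 and Clec14a, and a region of constant width at that of Sparc.
Fbxo5 (chr10:5805466-5805715, strand −): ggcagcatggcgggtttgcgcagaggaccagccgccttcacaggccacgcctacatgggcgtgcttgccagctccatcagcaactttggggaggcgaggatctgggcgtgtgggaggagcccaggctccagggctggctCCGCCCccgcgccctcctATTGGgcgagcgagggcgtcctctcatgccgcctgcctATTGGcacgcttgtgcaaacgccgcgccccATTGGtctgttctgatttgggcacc
Mcm3 (chr1:20820313-20820562, strand −): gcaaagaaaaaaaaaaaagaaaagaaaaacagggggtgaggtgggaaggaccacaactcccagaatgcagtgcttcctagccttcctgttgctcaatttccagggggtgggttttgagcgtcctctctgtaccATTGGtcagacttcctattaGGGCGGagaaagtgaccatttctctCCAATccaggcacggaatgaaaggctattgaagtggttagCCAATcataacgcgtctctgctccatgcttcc
Plk1 (chr7:122159185-122159434, strand +): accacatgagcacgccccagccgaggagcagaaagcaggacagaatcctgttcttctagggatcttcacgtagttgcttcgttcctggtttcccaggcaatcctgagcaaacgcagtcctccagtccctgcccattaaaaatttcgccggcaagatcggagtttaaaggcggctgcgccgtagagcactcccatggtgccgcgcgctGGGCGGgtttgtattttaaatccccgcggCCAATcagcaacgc
Cxcl10 (chr5:92348890-92349139, strand −): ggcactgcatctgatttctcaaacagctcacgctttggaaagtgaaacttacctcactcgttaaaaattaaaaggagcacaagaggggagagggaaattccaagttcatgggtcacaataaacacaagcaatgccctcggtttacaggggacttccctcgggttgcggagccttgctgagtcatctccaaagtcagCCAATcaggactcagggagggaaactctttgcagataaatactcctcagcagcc
Taf4 (chr2:179976647-179976896, strand −): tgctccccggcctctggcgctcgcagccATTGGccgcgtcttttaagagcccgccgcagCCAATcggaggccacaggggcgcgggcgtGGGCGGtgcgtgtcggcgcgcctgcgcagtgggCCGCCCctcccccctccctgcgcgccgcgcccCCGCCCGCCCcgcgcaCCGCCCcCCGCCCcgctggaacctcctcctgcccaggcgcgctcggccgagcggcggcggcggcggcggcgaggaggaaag
Prr5 (chr15:84662956-84663205, strand +): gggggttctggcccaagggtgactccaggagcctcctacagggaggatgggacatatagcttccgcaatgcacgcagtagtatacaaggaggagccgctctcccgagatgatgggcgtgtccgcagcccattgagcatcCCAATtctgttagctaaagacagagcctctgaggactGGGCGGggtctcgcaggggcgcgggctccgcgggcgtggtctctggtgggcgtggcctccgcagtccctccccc
Clec14a (chr12:58269259-58269508, strand −): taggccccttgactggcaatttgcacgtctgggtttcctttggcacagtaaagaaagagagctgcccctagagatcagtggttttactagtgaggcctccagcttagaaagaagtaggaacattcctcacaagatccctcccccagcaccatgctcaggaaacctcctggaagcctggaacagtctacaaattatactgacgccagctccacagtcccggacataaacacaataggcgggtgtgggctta
Sparc (chr11:55420081-55420330, strand −): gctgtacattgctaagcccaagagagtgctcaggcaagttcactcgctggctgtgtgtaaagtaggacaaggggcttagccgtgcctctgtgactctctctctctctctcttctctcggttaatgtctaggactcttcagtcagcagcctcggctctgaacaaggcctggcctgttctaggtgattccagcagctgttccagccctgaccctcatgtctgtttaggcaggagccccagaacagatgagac

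Fbxo5 and Mcm3 each held 3 CCAAT boxes and 1 GC box. Plk1 and Prr5 each held 1 of both, and Cxcl10 held 1 CCAAT box alone. Taf4 held 2 CCAAT boxes and 6 GC boxes, some of which run into each other. Clec14a and Sparc held none of these letters, and the CHR and the E2F letters occurred in none of the 8. CpG pairs numbered 40 upstream of Taf4, 18 upstream of Fbxo5 and Plk1 and 15 upstream of Prr5, against 5 for Mcm3 and Cxcl10 and 4 for Clec14a and Sparc. Among 21263 promoter entries of protein-coding genes, a CCAAT box occurred within this window in 35.4%, a GC box in 42.6%, a CHR in 14.5% and the E2F letters in 4.96%. A match is a run of letters and not a bound site, and its absence says nothing of the factor.

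The deposited lists held 43092 to 54700 peaks a library and covered 33.7 to 57.7 Mb, with more peaks and more covered bases in both ASC lists than in both FISC lists. No list had a peak narrower than 200 bases. Reads overlapping a summit were solved from the deposited fold enrichment and p-value. This assumes a Poisson p-value and a pseudocount of 1, as in MACS2's usual form, since its settings are not given. The reads came out whole for 100% of the peaks in these regions, within a tolerance of 0.005 in −log10 p. Their medians were 61 and 70 in ASC and 42 and 43 in FISC. The commonest background under these peaks was 2.33 and 2.86 reads in ASC replicates 1 and 2. In FISC replicates 1 and 2 it was 2.72 and 2.82. From 79.3 to 92.0% of a library's peaks in these regions lay at that value. Among satellite cell markers, covered length within 2 kb of the ends of 20 genes summed to 58.3 and 61.1 kb in ASC and 54.1 and 56.8 kb in FISC, and no gene of the list was at 0.

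These were strong and mostly promoter regions. Ranked by deposited fold enrichment within its own list, the median peak stood above 84.4 to 86.7% of the list. The regions held 10.9 to 13.8% of a list's peaks and 15.8 to 21.5% of its covered length. They touched 6762 of 21900 protein-coding genes (30.9%). The gene table gives no strand, and strand was taken from the promoter table for 17492 genes. It was known at the nearest gene end of 4816 regions, and 4647 of those (96.5%) lay at a start and 169 at a 3′ end. Most regions, 4805, touched 1 gene, 1116 touched 2 and 39 touched 3 or more. A single region reached 25 genes, because the protocadherin gamma genes share their last exons there with each other and lie beside Diaph1, a formin. Between 2 starts of opposed strands lay 548 regions. The midpoint was a median of 336 bases from the gene end, and 4297 regions (72.1%) had it within 500 bases.

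Round the starts of single genes the mark sat just inside the gene. At 3721 starts with no other gene end within 2 kb, the summit lay a median of 265 and 271 bases downstream of the start in the ASC replicates and 261 and 269 bases in the FISC replicates. The conditions overlapped (exact 2-sided permutation p = 0.667). The start here is the gene's outermost base, and the transcript start of the promoter table lay a median of 9 bases inside it at the 3645 of these with an entry (0 to 121 for the middle 50%). Summits fell downstream of the start in 91.3 ± 0.418% of regions in ASC and 89.5 ± 0.0760% in FISC (SD, n = 2), and the ASC values did not overlap those of FISC (p = 0.33 in the exact 2-sided permutation test, the smallest that 2 against 2 allows). The most filled stretch was 200 to 300 bases downstream, where 25.5 to 28.2% of summits lay. Peaks covered the start itself in 78.2 and 81.2% of regions in ASC and in 73.9 and 70.8% in FISC. At 300 bases inside the gene coverage was 88.9 and 90.2% against 88.3 and 87.6%, and at 1000 bases inside it was 46.5 and 53.4% against 35.7 and 36.0%.

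**Figure D1:**
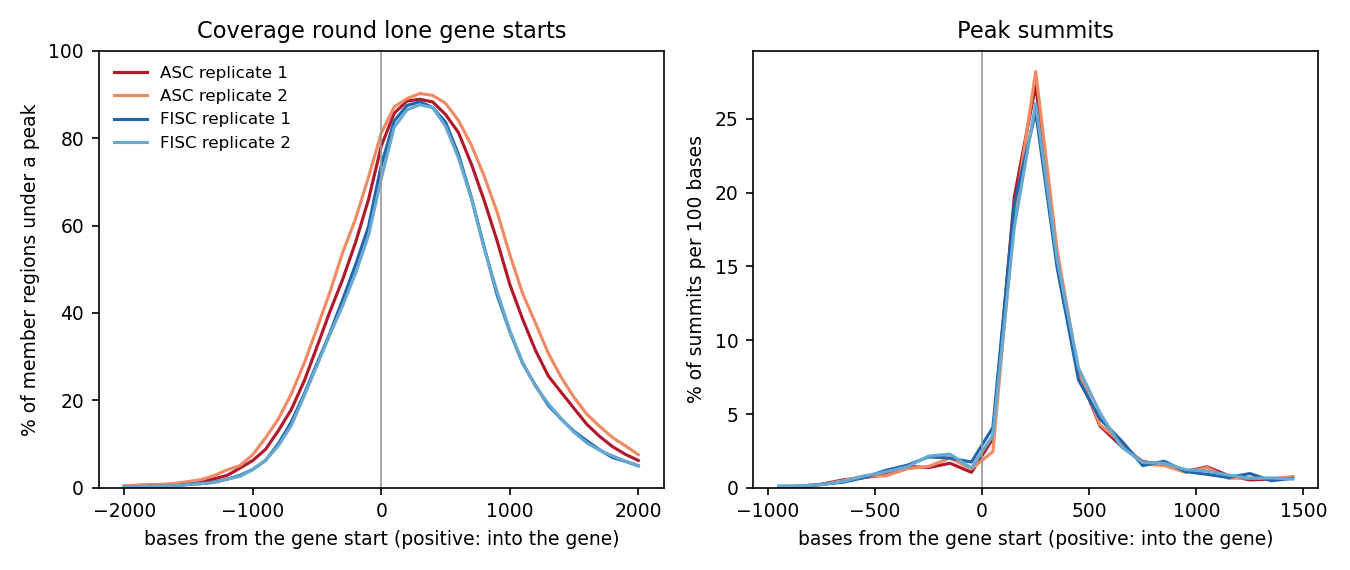
Left, percent of the 3721 regions at lone gene starts that are under a peak at each distance from the start (bases, positive into the gene), and right, percent of their summits in each 100 bases, with 1 line for each library. Coverage is highest near 300 bases in all 4 libraries and higher in ASC at 1000 bases, while the summit curves lie over each other.

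The median peak of these regions was wider in both ASC libraries than in both FISC libraries. The median width was 1332 and 1460 bases in the ASC replicates and 1163 and 1151 bases in the FISC replicates, or 1396 ± 90.5 against 1157 ± 8.49 (SD, n = 2). The conditions did not overlap, with a difference of 239 bases and a ratio of 1.21 (exact 2-sided permutation p = 0.33). Leaving out ASC replicate 2 reduced the difference to 175 bases, and leaving out ASC replicate 1 raised it to 303. More reads lay over ASC summits, as given above, while the background reads of the conditions overlapped. Summit reads mix depth with enrichment, and the part of read depth in the width difference was not tested. Lists cut to equal peak number gave a difference of 240.25 bases, but that cut drops whole peaks and does not level the reads. A mark on more cells and more of the mark per cell cannot be told apart in such libraries.

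Both edges lay farther out in ASC, the inner one by more bases. Measured from the nearest gene end, the edge inside the gene lay 997.5 ± 48.8 bases away in ASC and 849.75 ± 3.18 in FISC. The edge outside lay 379.75 ± 36.4 bases away against 281 ± 15.6. The inner minus the outer distance was 599 and 616 bases in ASC and 550 and 565 in FISC. The ASC values were 50 bases higher on average and did not overlap those of FISC (exact 2-sided permutation p = 0.33). In 3520 regions (59.1%) the inner edge gained more than the outer one.

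**Figure D2:**
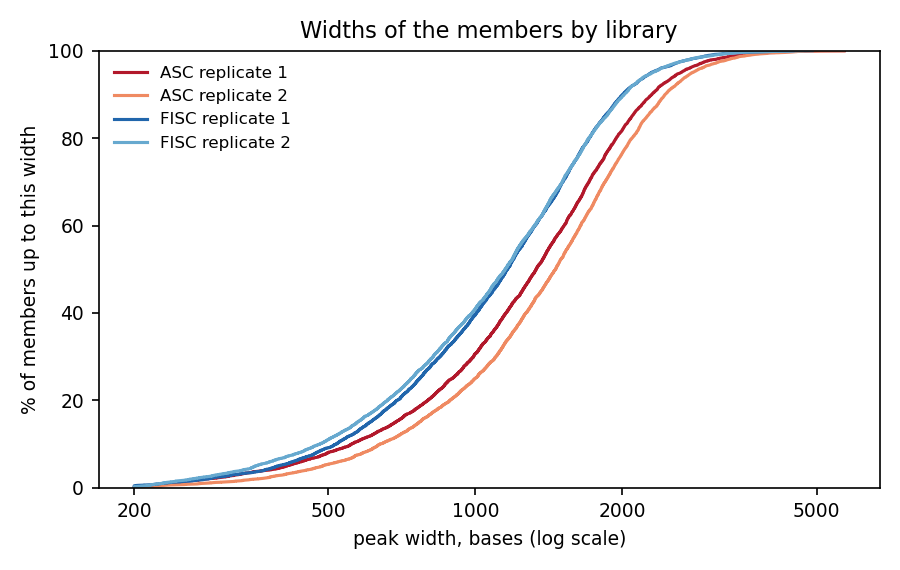
Percent of the 5960 regions (vertical) whose peak is no wider than the width on the horizontal axis (bases, log scale), with 1 line for each library. The FISC lines coincide over most of the range, and both ASC lines lie to their right, ASC replicate 2 farthest.

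Region by region, widths differed more between conditions than between replicates. Replicates of a condition disagreed by a median of 1.11-fold in ASC and 1.11-fold in FISC, and libraries of different conditions by 1.21- to 1.27-fold. limma, fitted on log2 width over all 19493 regions, called 777 of the 5960 regions wider in ASC (13.0%) and 87 narrower (1.46%) at an adjusted p under 0.05. Over all regions fitted the shares were 25.3% wider and 3.86% narrower. Fitted with the other single-peak regions alone, 1126 of the 5960 were called wider (18.9%, against 19.2% of the 9638 fitted) and 112 narrower (1.88%, against 3.2%). The median log2 difference was 0.24 here and 0.29 over all. Both ASC libraries were wider than both FISC libraries in 3451 regions (57.9%, against 57.1% of all) and narrower in 535 (8.98%, against 13.6%), and 1974 overlapped. The share separated upward was close to that of all regions.

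The split between wider and narrower calls depends on the scale. Widths were also centred on each library's median, which removed a shift of 0.37 log2 between conditions. On that scale 214 regions were called wider (3.59%, background 12.7%) and 448 narrower (7.52%, background 12.4%). The median log2 difference became −0.14 here and −0.085 over all regions fitted. Centring thus removed more than the median change of a region, which tilts calls towards narrower. The wider share of all calls went from 89.9 to 32.3%. All 214 and all 87 were called on both scales. Counts also rested on each library, and both fell when any single library was left out. Such fits leave a single library in a condition, so only their median log2 differences are given. Without ASC replicate 1 the median was 0.30, against 0.37 over all regions fitted, and without ASC replicate 2 it was 0.18 against 0.22. Without FISC replicate 1 it was 0.24 against 0.28, and without FISC replicate 2 it was 0.23 against 0.27. Summit reads moved with the calls: called wider, regions had medians of 77 and 87 reads in ASC and 40 and 42 in FISC, and called narrower, 18 and 23 against 29 and 31. Reads were higher in ASC without a call too: the 5096 regions not called had 60 and 69 against 42 and 43.

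**Figure D3:**
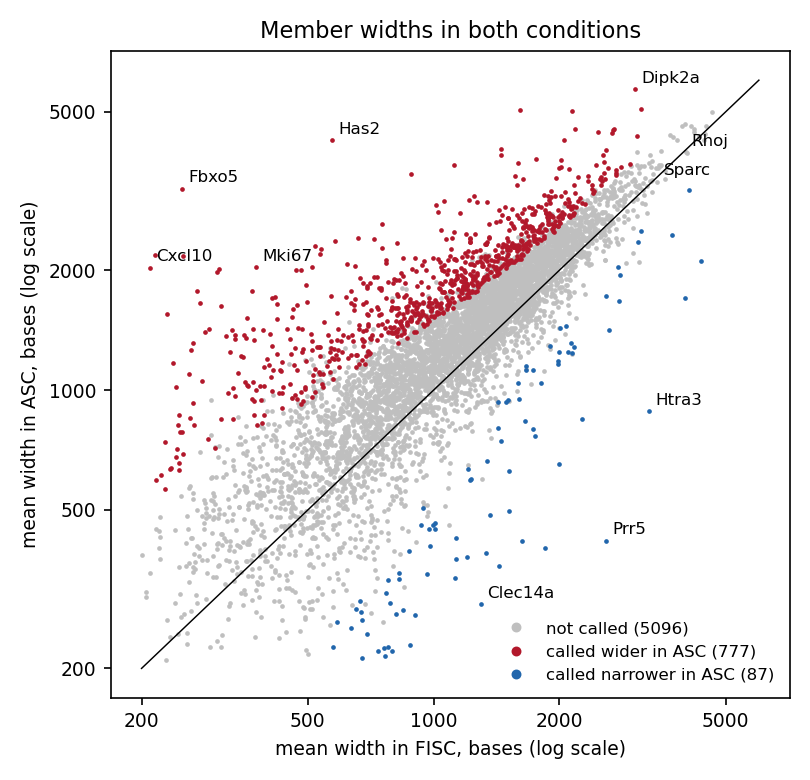
Mean peak width in FISC (horizontal) and in ASC (vertical) of each of the 5960 regions, in bases on log scales, with the line of equal width. The 777 regions called wider in ASC are red, the 87 called narrower blue and the others grey, and 10 genes of the text are named.

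The largest gains began from FISC peaks near the smallest width that the lists hold, so their ratios depend on that floor. Fbxo5 encodes Emi1, which restrains the anaphase-promoting complex. Its region (chr10:5803408-5806660, at the start) spanned 3159 and 3253 bases in ASC and 271 and 228 bases in FISC. Both ASC peaks ran across the promoter printed above, and the log2 difference of 3.69 (SE 0.23, limma adjusted p = 0.000653) was the largest among the genes named by rule. Anapc4 encodes a subunit of that same anaphase-promoting complex. Its 3′ end (chr5:52864907-52867177) carried 2099 and 2271 bases in ASC and 200 and 230 bases in FISC. Both FISC values were at or near the floor, and the log2 difference was 3.35 (SE 0.26, adjusted p = 0.0011).

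Has2, which makes hyaluronan, had the widest ASC peaks among these 10 gains. Its region (chr15:56691784-56696089) measured 4232 and 4261 bases in ASC and 299 and 844 bases in FISC. The ASC replicates were alike and the FISC replicates were not (log2 difference 3.08, SE 0.46, adjusted p = 0.00648). Cxcl10, an interferon-induced chemokine, had 2242 and 1817 bases in ASC and 200 and 219 bases in FISC at its start (log2 difference 3.27, adjusted p = 0.00131). Covered length round 8 myeloid markers moved the same way, 3.88 and 6.55 kb in ASC and 2.89 and 2.36 kb in FISC, but Ptprc, Adgre1, Itgam, Lyz2 and Tyrobp were at 0 in all libraries. The rise was not particular to myeloid markers. Fibroblast markers had 5.52 and 6.52 against 4.57 and 4.77 kb, and Schwann and tendon markers 7.61 and 7.89 against 5.12 and 5.02 kb. Endothelial and lymphoid markers were lower in both ASC libraries, and those of smooth muscle and pericytes were not separated. Whole lists covered 49.2 and 57.7 Mb in ASC and 34.4 and 33.7 Mb in FISC. The part of myeloid cells in the Cxcl10 result was not tested.

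Regions at genes of cell division gained as well. Mki67 encodes the Ki-67 protein of cycling cells. Its region (chr7:135715063-135717242) measured 2162 and 1907 bases in ASC and 493 and 260 bases in FISC, with 101 and 116 summit reads against 13 and 18. Conditions were far apart (log2 difference 2.50, SE 0.35, adjusted p = 0.00536). Cenph, a kinetochore gene, had 1449 and 1649 bases in ASC and 260 and 200 bases in FISC (log2 difference 2.76, adjusted p = 0.00252).

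The other 4 of the 10 largest gains were of mixed function. Arl15, a small GTPase of the ARF-like family, had 2016 and 2333 bases at its 3′ end in ASC and 283 and 219 in FISC (log2 difference 3.12). Fhod3, a formin of the sarcomere, had 2104 and 1931 bases against 286 and 328 (2.72). Ltc4s, leukotriene C4 synthase, had 1783 and 1768 bases against 290 and 254 (2.71), nearest to its 3′ end. Ptprs, a receptor phosphatase for proteoglycans, had 1624 and 1681 bases against 296 and 255 (2.59), with the midpoint 1995 bases from its start. In each of the 10, both ASC replicates were wider than both FISC replicates, and all 10 were called wider in every other setting that kept the region in all 4 lists (adjusted p up to 0.0434 for Mki67).

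Narrowing was called at fewer regions. Prr5 encodes a component of the mTOR complex that contains Rictor. Its region (chr15:84663032-84665681) spanned 347 and 490 bases in ASC and 2528 and 2650 bases in FISC, a log2 difference of −2.65 (SE 0.24, adjusted p = 0.00152). Summit reads were 16 and 30 in ASC and 29 and 29 in FISC, so they overlapped while the widths did not. Htra3, a secreted serine protease, had the widest FISC peaks among the 10 largest losses. Its region (chr5:35676901-35680444) measured 615 and 1157 bases in ASC and 2995 and 3544 bases in FISC (log2 difference −1.95, SE 0.30, adjusted p = 0.00736). Its summit stayed within a few bases, 521 and 515 bases inside the gene in ASC and 511 and 515 in FISC.

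Clec14a, a C-type lectin known from endothelium, had 270 and 311 bases in ASC and 1449 and 1147 bases in FISC (chr12:58267866-58269392, log2 difference −2.15, adjusted p = 0.00494). Covered length round 7 endothelial markers was 1.82 and 2.60 kb in ASC and 2.88 and 3.47 kb in FISC, with Pecam1, Cdh5, Tie1 and Emcn at 0 in all libraries. Its part in the Clec14a result was not tested. Sema3b, a secreted semaphorin, had 392 and 410 bases in ASC and 1877 and 1819 in FISC (−2.20). Ttyh1, a membrane protein of the tweety family, had 200 and 635 bases against 1526 and 1731 (−2.19), with unequal ASC replicates. Cyth1, an exchange factor for ARF GTPases, had 380 and 345 bases against 1490 and 1383 at its 3′ end (−1.99).

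The last 4 of the 10 losses had ASC peaks of under 450 bases. Olfm1, a secreted olfactomedin, had 219 and 238 bases against 1110 and 641 (log2 difference −1.89). Cdo1, cysteine dioxygenase, had 200 and 229 bases against 813 and 716 (−1.83). Kcnc2, a voltage-gated potassium channel, had 242 and 200 bases against 665 and 921 (−1.83). Col6a2, a chain of collagen VI from the matrix round myofibres, had 228 and 448 bases against 1399 and 851 (−1.77). In all 10 losses both ASC replicates were narrower than both FISC replicates. The calls of Prr5, Htra3, Clec14a, Sema3b and Cyth1 held in every setting with the region. Those of Col6a2 and Ttyh1 were also lost with no variance trend and with peaks joined within 500 bases. Those of the last 4 and Ttyh1 were lost when 1 library was left out: for Olfm1 and Cdo1 any but FISC replicate 2 and ASC replicate 2 respectively, for Kcnc2 replicate 2 of either condition, for Col6a2 replicate 1 of either, and for Ttyh1 either FISC replicate, with adjusted p up to 0.122, 0.0864, 0.116, 0.148 and 0.104.

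**Figure D4:**
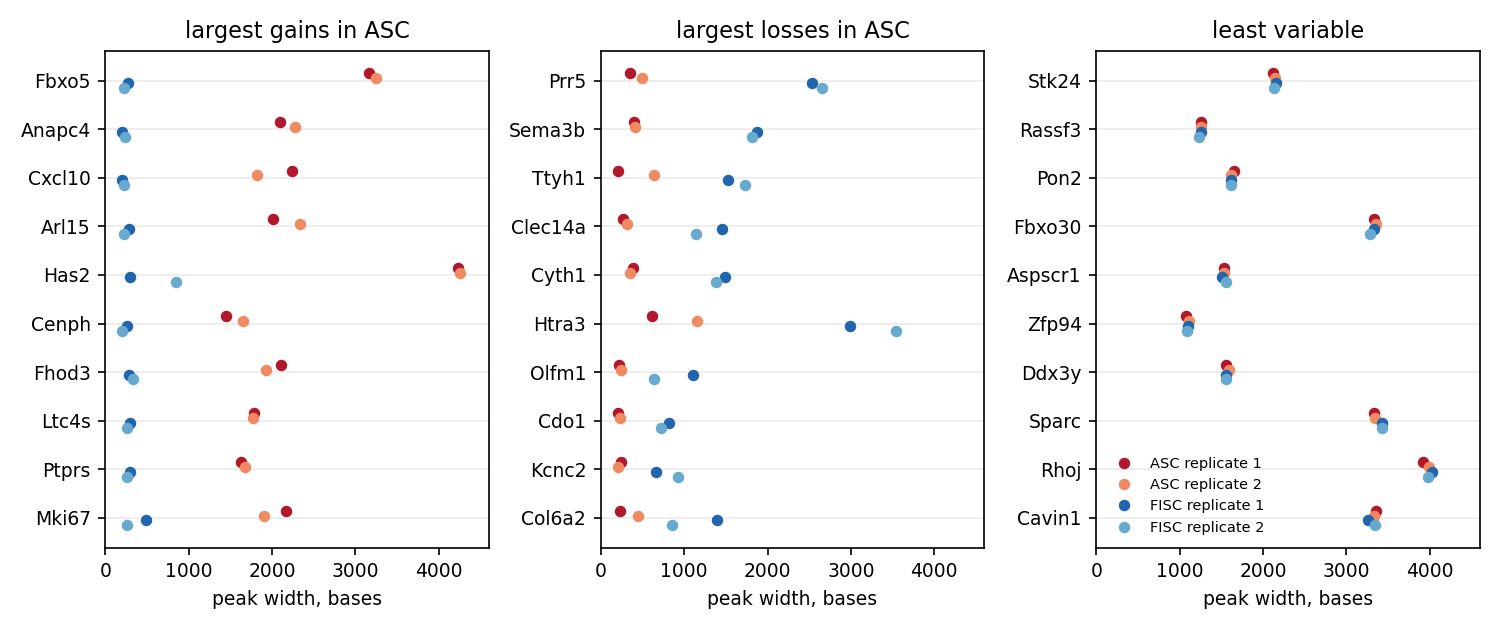
Peak width in bases of the 10 regions with the largest gains in ASC, the 10 with the largest losses and the 10 with the smallest ratio of widest to narrowest library, with 1 point for each library. ASC points (red, orange) and FISC points (blue) lie apart in the first 2 panels and together in the last.

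Many regions kept almost the same width in all libraries. In 1521 (25.5%) the widest library was within 1.25-fold of the narrowest, while in 952 (16.0%) the ratio exceeded 2-fold. Stk24, a kinase of the sterile-20 family, had 2123 and 2139 bases in ASC and 2157 and 2134 in FISC. Fbxo30, a ubiquitin ligase gene known from muscle atrophy, had 3336 and 3357 against 3331 and 3281 (chr10:11279804-11283221). Sparc, a secreted matrix protein, had 3330 and 3344 against 3426 and 3429 (chr11:55417281-55420711). Cavin1, a coat protein of caveolae, had 3360 and 3332 against 3260 and 3340. The 6 others by rule were Rassf3, Pon2, Aspscr1, Zfp94, Ddx3y and Rhoj. Constant width did not mean constant summit reads: at Fbxo30 these were 145 and 152 in ASC and 98 and 103 in FISC. These regions were chosen for their small spread, and on centred widths the fit calls several narrower in ASC, such as Sparc at −0.41 log2 (adjusted p = 0.026).

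Width ranged from the floor of the lists to several kilobases. Dipk2a, a gene for a secreted kinase-like protein, held the widest peaks in ASC, 5696 and 5680 bases, against 3012 and 3068 in FISC. It was the 1 region of the 5 widest by mean that was called (log2 difference 0.90, SE 0.08, adjusted p = 0.00133). Cpt1a, the carnitine transferase that admits fatty acids to mitochondria, had 4902 and 5061 bases in ASC and 4366 and 4898 in FISC. Jag1, a Notch ligand, had 4314 and 4475 against 4407 and 4527. A region shared by Hcfc1r1, Thoc6 and Tnfrsf12a had 4649 and 4551 against 4041 and 4220, and Hoxc9 had 4341 and 4687 against 4014 and 4391. The narrowest were at Cxcl5, Stat6, Map2k6, Tmem106a and Casz1, where every library was between 200 and 302 bases, and none was called.

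The genes at these regions were grouped by 24 lists, drawn up with earlier results of these data known. Each gene was counted at the region nearest to either of its ends. Presence of peaks chose the regions, so the shares below describe which genes were kept and are no result. Of all protein-coding genes, 30.9% had an end at one of the regions. That share counts 8759 of 21900 genes with no region midpoint within 2 kb, against 0 to 3 genes in each core list named next. Core machinery stood above that: 34 of 43 genes of RNA polymerase II and the general factors, 59 of 77 mitochondrial ribosomal proteins, 30 of 40 splicing genes, 54 of 75 genes of the respiratory chain and ATP synthase, 26 of 39 translation factors, 20 of 32 proteasome subunits, and 40 of 75 cytosolic ribosomal proteins. Zinc finger genes with a KRAB domain, which silence transposable elements, gave 23 of 36. Muscle programmes stood below it: 2 of 20 satellite cell identity genes, 4 of 26 quiescence and Notch genes and 3 of 26 genes of myogenic commitment and the sarcomere. Most identity genes (13 of 20) lay instead at regions present in all 4 lists that held more than 1 peak of a library. Of all 21900 protein-coding genes, 4219 were in that class. The 13 included Myf5, Sdc4 and Itgb1. Pax7, Calcr, Cdh15 and Myog lay at regions missing from at least 1 list.

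**Figure D5:**
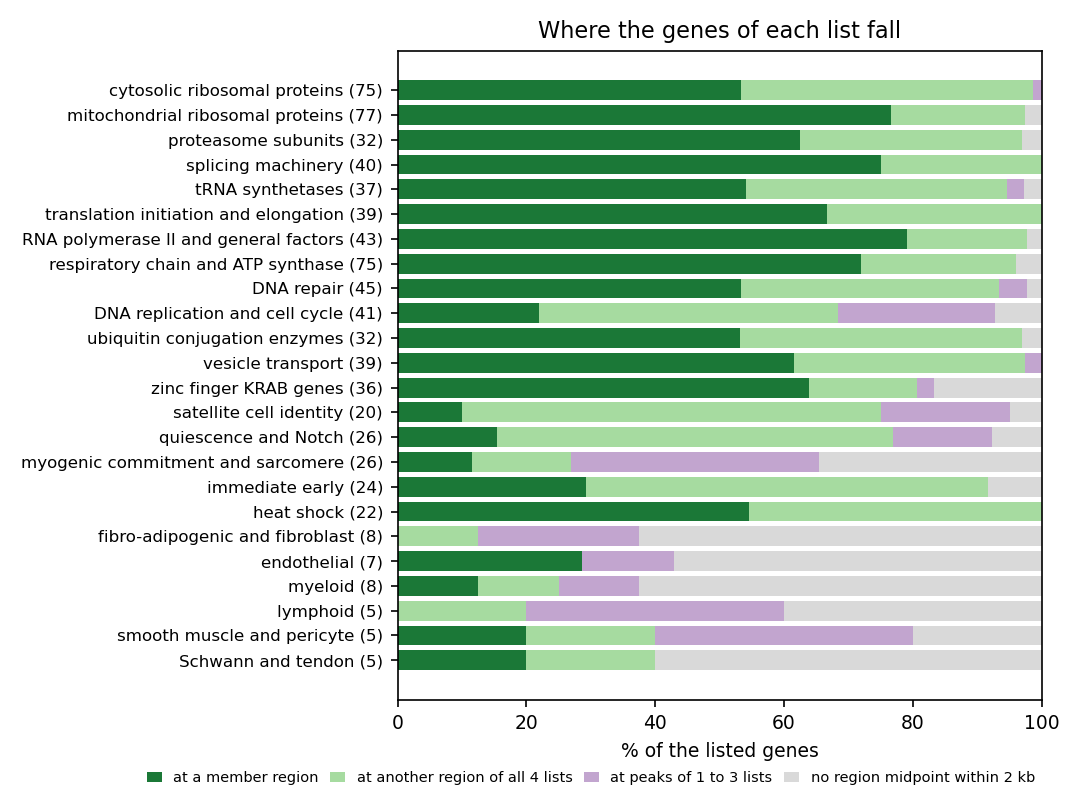
For each of 24 gene lists (number of genes matched in brackets), the percent of genes with an end at one of the 5960 regions, at another region of all 4 lists, at peaks of 1 to 3 lists only, or with no region midpoint within 2 kb. The first 13 lists are mostly dark green (53.1 to 79.1% at the 5960 regions) apart from DNA replication and cell cycle, and lists of muscle and of other cell types are not.

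Regions at core machinery were called wider in differing shares, read against 13.0% of the 5960 regions and 25.3% of all regions fitted. Among proteasome subunits 7 of 20 regions were called wider and none narrower, with a median log2 difference of 0.48, against 0.24 over the 5960 regions and 0.29 over all. Psmb5, a catalytic subunit of the proteasome, had 2852 and 3082 bases in ASC and 1144 and 1398 in FISC (log2 difference 1.23, adjusted p = 0.00297). Mitochondrial ribosomal proteins gave 12 wider of 58 regions and a median of 0.40, and Mrps22, of the small mitochondrial subunit, had 1363 and 1297 bases against 576 and 559. Cytosolic ribosomal proteins gave 10 wider of 40 and a median of 0.27, with Rps20 at 2000 and 1850 against 976 and 1021. The respiratory chain and ATP synthase gave 14 wider of 54 and a median of 0.35, with Sdhd, a membrane subunit of succinate dehydrogenase, at 2141 and 2700 against 1269 and 1438 in a region it shares with Nkapd1 and Timm8b. Psmb5 was called in every setting, Rps20 not without ASC replicate 1, Sdhd neither without ASC replicate 2 nor on centred widths, and Mrps22 not without either.

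Among the other core lists the calls ran from a single region to 6. Aminoacyl-tRNA synthetases gave 6 wider of 19 regions (median 0.51), and translation factors 5 of 26 (0.33). Splicing genes gave 3 wider of 30 (0.26), with Sf3b3, of the SF3b complex, at 4514 and 4537 bases in ASC and 1907 and 2460 in FISC in a region between its start and that of Cog4. RNA polymerase II and the general factors gave 1 of 34 (0.25), Taf4, at 1812 and 1897 bases against 973 and 1103, a call that was lost without either ASC replicate and on centred widths. Vesicle transport gave 1 of 24 (0.20), ubiquitin conjugation 1 of 17 (0.21), KRAB zinc fingers 3 of 23 (0.31) and heat shock genes 2 of 12 (0.30). None of these lists had a narrower call on widths as deposited. On centred widths at most 3 regions of any core list were called wider. Narrower calls on that scale were 2 in vesicle transport and 1 each in tRNA synthetases, ubiquitin conjugation and KRAB zinc fingers. Cytosolic and mitochondrial ribosomal proteins also had 1 each.

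Genes of DNA replication and the cell cycle were seldom at these regions, 9 of 41, but 6 of the 9 were called wider and none narrower (median log2 difference 0.84), against 13.0% wider of the 5960 regions and 25.3% of all regions fitted. Besides Mki67 these were Tyms, Plk1, Pcna, Mcm3 and Pola1. Tyms, thymidylate synthase, had 1844 and 2149 bases in ASC and 373 and 566 in FISC (chr5:30071829-30073977, log2 difference 2.12, SE 0.28, adjusted p = 0.00424). Plk1, a mitotic kinase, had 1907 and 2248 against 774 and 469 (chr7:122158398-122160645, log2 difference 1.78, adjusted p = 0.00802). Pcna, the sliding clamp of DNA polymerase, had 2623 and 2770 against 1431 and 1582 in a region it shares with Cds2, and Mcm3, of the replicative helicase, 1101 and 1418 against 683 and 497. Tyms was called in every setting, while Plk1 was not called without ASC replicate 2, and Mcm3 was called among the left-out libraries only without FISC replicate 1 (adjusted p up to 0.0563 for Plk1 and 0.17 for Mcm3). On centred widths 4 of the 9 were called wider. Of 24 DNA repair regions 3 were called wider and none narrower (median log2 difference 0.32), and on centred widths 1 was called wider and 2 narrower.

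Few muscle genes were present, and they went both ways. Mymx, the fusion micropeptide Myomixer, had 922 and 1185 bases in ASC and 200 and 358 in FISC (log2 difference 1.97, adjusted p = 0.017), in a region shared with Slc29a1. Chrna1, the alpha subunit of the muscle acetylcholine receptor, had 3459 and 3976 against 1655 and 1520 (1.23, adjusted p = 0.0018). Des, the intermediate filament protein desmin, had 682 and 923 against 1466 and 1383 (−0.84, adjusted p = 0.0391). The Des region lay wholly beyond the 3′ end of the gene, with its midpoint 1861 bases away. Erbb3, a receptor for neuregulin, had 1400 and 1536 against 752 and 754 (0.96, adjusted p = 0.016). Cd34, a sialomucin used to isolate satellite cells, had 779 and 833 against 1014 and 825, which overlapped (−0.18, adjusted p = 0.59). Chrna1 was called in every setting. Without either ASC replicate Mymx and Erbb3 were not called (adjusted p up to 0.0916 and 0.0941), and Des was called among the left-out libraries only without ASC replicate 2 (up to 0.123).

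Of 4 genes of quiescence and Notch signalling at these regions (Tek, Tgfbr3, Notch3 and Cd34), none passed the test on widths as deposited at the counted region. Tek, the receptor of angiopoietin and also on the endothelial list, had 614 and 971 bases in ASC and 1328 and 1378 in FISC (log2 difference −0.81, adjusted p = 0.0741). Tgfbr3, the co-receptor betaglycan, had 1259 and 1772 against 2192 and 2191 (−0.55, adjusted p = 0.073). Both were called narrower on centred widths, with adjusted p of 0.017 and 0.0089. Notch3 had 1835 and 1850 against 1893 and 1614 at its start, and a second region near its other end measured 865 and 1170 against 470 and 515 and was called wider (1.03, adjusted p = 0.0425). Among immediate early genes 1 of 7 was called wider: Nr4a2, an orphan nuclear receptor whose region also holds an end of LOC105244150, with 2205 and 2043 against 742 and 798 (1.46, adjusted p = 0.0026).

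Markers of other cell types had an end at these regions in 2 of 7 for endothelium, 1 of 8 for myeloid cells, 1 of 5 for smooth muscle and pericytes, 0 of 8 for fibroblasts and 0 of 5 for lymphoid cells, against 30.9% of all protein-coding genes. These were Tek, Cldn5, Spi1 and Notch3. Spi1, the myeloid factor PU.1, had 412 and 431 bases in ASC and 366 and 360 in FISC. Cldn5, a tight junction claudin, had 602 and 814 bases in ASC and 774 and 915 in FISC. None of the 4 passed the test at the counted region.

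Promoter sequence was held for 4654 of the 5960 regions (78.1%), under the 80% that a check over the whole set needs, so such a check is void and the values describe those 4654 alone. The listed transcript start was the gene's outermost base in 2173 of them. A GC box occurred in 62.3% of their 250-base windows, a CCAAT box in 35.2%, a CHR in 9.56%, the E2F letters in 7.39%, the ETS letters CCGGAAG in 16.4% and a TATA box, TATAAA, in 5.07%. Over all 21263 entries the ETS letters occurred in 8.98% and the TATA box in 11.6%. Observed over expected CpG had a median of 0.77. With these regions in 4 classes of equal size by that ratio, from lowest to highest, median width went from 1080.5 to 1352.5, 1514 and 1773.25 bases in ASC and from 921.75 to 1097.5, 1268 and 1492.75 in FISC. The median log2 width difference was 0.20, 0.25, 0.24 and 0.25 in the same order.

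Position at the gene bore on width. Regions between opposed starts measured 1860.75 ± 80.3 bases in ASC and 1539.5 ± 4.24 in FISC, and those at lone starts 1350.5 ± 81.3 and 1124.5 ± 10.6 (SD, n = 2). The change between conditions differed by 0.01 log2 between both kinds (exact 2-sided permutation p = 0.667). The 126 regions that lay only at known 3′ ends were shorter, 719 ± 48.1 bases in ASC and 679 ± 24.0 in FISC, than the 4746 with a start within 2 kb, 1413.5 ± 90.5 and 1171.75 ± 11.0. The width gain was 0.19 log2 larger at starts (exact 2-sided permutation p = 0.33), and this direction turned in 6 of the 8 other settings that use all libraries, among them lists cut to equal covered length (−0.34). At the limit of the rule, 35 regions with the midpoint 1900 to 2000 bases away measured 998 bases in ASC and 715.5 in FISC at the median. The 30 regions 2000 to 2100 bases away measured 1113.75 and 1111. Taken region by region, the median log2 change was nearly the same, 0.18 inside the limit and 0.19 outside it.

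Compared with the most similar other regions, the order of the width differences depended on the measure. Single-peak regions of all 4 lists away from gene ends (3678) had median widths of 832.5 ± 94.8 bases in ASC and 653.25 ± 1.06 in FISC. The median log2 difference between the regions at gene ends and those away was 0.75 ± 0.0710 in ASC and 0.82 ± 0.00824 in FISC. That is 0.08 lower in ASC, with no overlap (exact 2-sided permutation p = 0.33), and it was 0.03 lower without ASC replicate 2, 0.13 without ASC replicate 1 and 0.30 in lists cut to equal covered length. Regions at gene ends with more than 1 peak in a library (4012) covered 1976.5 ± 132 bases against 1524.75 ± 24.4. Against these the log2 difference was 0.10 lower in ASC, again with no overlap (exact 2-sided permutation p = 0.33), and 0.26 lower with peaks joined within 500 bases. Taken region by region, the median log2 change was 0.24 at the regions described here, 0.20 away from gene ends and 0.33 where there were several peaks, so the first comparison turns with the measure and the other does not. Both ASC libraries were wider in 57.9, 44.1 and 66.5% of regions in the same order. limma called 13.0, 17.5 and 31.2% wider and 1.46, 4.24 and 2.77% narrower.

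Summits rarely moved. Replicates of ASC differed in summit position by a median of 41 bases and replicates of FISC by 52, and libraries of different conditions by 52 to 54. limma called 46 of the 5960 summits displaced (0.772%, against 0.82% of all 9638 single-peak regions), 30 farther into the gene in ASC and 16 farther out. With the replicate number as a block or with the summit as a share of the width, 0 were called. The calls did not hold either when any single library was left out. Under the block 5.77% of summits had an unadjusted p under 0.05, against 7.08% in the fit as reported. A share of 0.05 would arise with no shift at all, so 5.77% is close to that. The largest was at Irgq, an immunity-related GTPase, where the summit lay 991 and 991 bases inside the gene in ASC and at −319 and −371 bases, outside it, in FISC, while the width was 2596 and 2433 against 2574 and 2539 (adjusted p = 0.024). At Atf1, a factor that binds cyclic AMP response elements, summits lay 561 and 528 bases inside in ASC and at −346 and −281 bases in FISC. In the other direction, at Eif3b, a translation initiation factor, they lay at −423 and −407 bases in ASC and 256 and 331 bases inside in FISC.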

How the data were processed

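H3K27ac was mapped by ChIPmentation, in which antibody-bound chromatin is tagmented, in 4 libraries, 2 for each of ASC and FISC. Reads were handled with MACS2, Picard, BWA and bcl2fastq 2.19 on mm10, per the submitters' processing notes. For the settings of these tools and the use of the inputs, no source used here gives them. The authors deposited 1 peak list for each library, with positions and summits. Its fold column, deposited by the authors, is a ratio of summit reads to local background. Significance was deposited as −log10 of the p-value and of the q-value. In 100.0% of peaks the deposited score equals 10 times the −log10 q, cut to a whole number. Fold ranked peaks only within a list.

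Regions were merged across lists (overlap of at least 1 base), and 0 peaks overlapped another of their own list. Gene ends came from RefSeq genes on GRCm38.p6, and strand from its promoter table. Width was the number of bases under peaks. The log2 widths of 19493 regions were fitted with limma 3.58.1 in R 4.3.3 (eBayes with trend, no pseudocount), 2-sided, with Benjamini-Hochberg adjustment over all of them and a threshold of 0.05. Summits were fitted the same way over 9638 single-peak regions. Library-level values were compared with exact 2-sided permutation tests (2 against 2, smallest p 0.33). The fits were tested on simulated data. The peak lists hold no read totals. Reads over summits are given in their place, and these mix sequencing depth with enrichment. No value column was left without a sample (0 columns).

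Genes named are the 10 called regions with the largest log2 difference in each direction, without predicted genes, the 10 with the smallest ratio of widest to narrowest library, the 5 widest and 5 narrowest, the first 2 to 4 of each of 24 lists in order of absolute difference, 12 regulators where present and, for summits, the 5 largest called shifts each way. The text describes part of them, and genes that only a count singles out were chosen after their values were seen. The members and lists were chosen with earlier results of these data known. Alternatives were another scale, fit, peak cut-off, list length, overlap or distance, peaks joined within 500 bases, and each library left out.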

Additional observations from a re-analysis of the deposited data

How the results depend on the processing

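The count of regions called wider in ASC (777) stayed within 1.5 times in 12 of 13 settings that use all libraries, and that of regions called narrower (87) in 11 of 13. Centred widths gave 214 wider and 448 narrower. Lists cut to equal covered length gave 25 narrower (0.481%, against 1.62% of all regions fitted there). Leaving out 1 library gave 167 to 535 wider and 21 to 53 narrower, fits with fewer samples. The median width difference and the comparison of edges kept their direction in all 8 other settings and without each library. So did both library-level comparisons with other regions. Region by region, the comparison with regions away from gene ends turned, as given above. Its library-level values overlapped with −log10 q of at least 5, midpoints within 1 kb or means in place of medians (exact 2-sided permutation p = 0.667). The larger width difference at starts than at 3′ ends (0.19 log2) turned to −0.071 with peaks of −log10 q of at least 5, −0.12 with fold enrichment of at least 5, −0.0079 with lists of equal peak number, −0.34 with equal covered length, −0.024 with peaks joined within 500 bases and −0.036 with midpoints within 5 kb. The cause was not tested. It rests on 126 regions at 3′ ends. Summit displacements (46) fell to 0 with the summit as a share of the width and to 0 without each library. Of the width differences of named genes recomputed in 15 settings, 1350 kept their side of the threshold, 149 lost a call, 46 gained one and 2 turned. On centred widths Fbxo30 came to −0.35 and Cavin1 to −0.35 and both were called narrower, because the shift of 0.37 log2 between conditions was removed. With the replicate number as a block in the limma fit, 663 regions were called wider, 75 narrower and 0 summits displaced. The labels share only a number between conditions, and deviations of same-numbered libraries correlated by 0.0035 over 19493 regions. Peaks of 200 bases are the narrowest listed, so widths near that floor limit what a loss or gain can show, and no peak list gives its read total.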
